A study of Mus musculus with 6 samples.

Results

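CC chemokine transcripts of arthritic synovial fibroblasts (SFs) were examined in 10 genes, namely Ccl2, Ccl3, Ccl4, Ccl5, Ccl6, Ccl7, Ccl8, Ccl9, Ccl11 and Ccl20, picked by gene name from a table of 49548 genes, in which all 10 were listed. SFs, the connective tissue cells of the joint lining, came from ankles of mice aged 8 weeks on a CBA C57BL/6J background. These mice were hTNFtg, that is, they express a human TNF transgene and develop chronic polyarthritis. The cells were taken out by collagenase digestion and were depleted of CD45+ leukocytes at passage 1. The study asked whether amisulpride, an antipsychotic drug, dampens the inflammatory activation of these cells. One group of 3 libraries had no treatment and the other group of 3 had 500 μM amisulpride for 48 hours. Both groups carried the transgene, so no wild-type SFs enter the comparison, and the study's methods name a vehicle where the sample labels state that nothing was given. The promoter of the transgene was not given in the sources used here. The methods call the libraries biological replicates without saying whether each came from separate mice, so p-values measure the spread between these cultures.

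CC chemokines are small secreted proteins that carry adjacent cysteines and draw leukocytes along a gradient by binding G protein-coupled receptors. TNF induces many of them through NF-kB, and inflamed synovial tissue uses them to recruit monocytes and lymphocytes to the joint. The members were divided, from general knowledge, into a fibroblast-type group of 6 genes that stromal cells make on TNF stimulation (Ccl2, Ccl5, Ccl7, Ccl8, Ccl11 and Ccl20) and a myeloid-type group of 4 genes known chiefly from macrophages and their relatives (Ccl3, Ccl4, Ccl6 and Ccl9). The division is not strict, since macrophages also make Ccl2, Ccl5, Ccl7 and Ccl8.

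Values are 3′ read counts normalised by the authors, called normalised counts. A 3′ kit counts transcript ends, so reads do not grow with transcript length and no division by length was made. Total normalised counts ran from 3832980 to 4504242 per library, which corresponded to about 2520000 to 4710000 reads in the 5 libraries where the value of 1 read could be estimated. In those 5 libraries a floor of 3 reads equalled 2.5 to 5.37 normalised counts. Amisulpride replicate 3 was the shallowest of those 5 and stood apart on the leading principal component, at 73.9 against -38.2 to 10.4 for the others. Log2 fold changes of members that rest on it are therefore given with and without it. All 14 fibroblast markers were detected at a testable level, and their summed normalised counts ran from 75151 to 86427 in untreated and from 67163 to 100568 in treated SFs. S100a4 was the 1 of these 14 past the thresholds of the study, which 3.01% of all genes tested passed as lower and 2.69% as higher. Its log2 fold change was -1.31 (from 24374 to 29324 untreated, from 8035 to 13948 treated, limma adjusted p = 0.117). Prg4 was also lower without overlap (915, 859 and 733 against 426, 304 and 653, log2 fold change -0.92, limma adjusted p = 0.251). Estimates were lower for 6 and higher for 8 of the 14. Of 7 endothelial markers 2, Cdh5 and Cldn5, were at 0 throughout, and the sum of all 7 was 2 to 17 normalised counts per library.

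The 10 members together supplied 18862, 24855 and 18453 normalised counts in untreated replicates 1, 2 and 3, and 13217, 10357 and 15572 in the treated ones. This was 0.47% to 0.648% of all normalised counts in untreated SFs and 0.263% to 0.346% in treated SFs, and the ranges did not overlap. Ccl2 and Ccl7 dominated the sum in every library, Ccl20 came next, and the other 7 members each had at most 226 normalised counts. In bulk samples, fewer cells that make a transcript and less transcript per cell cannot be told apart.

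**Figure D1:**
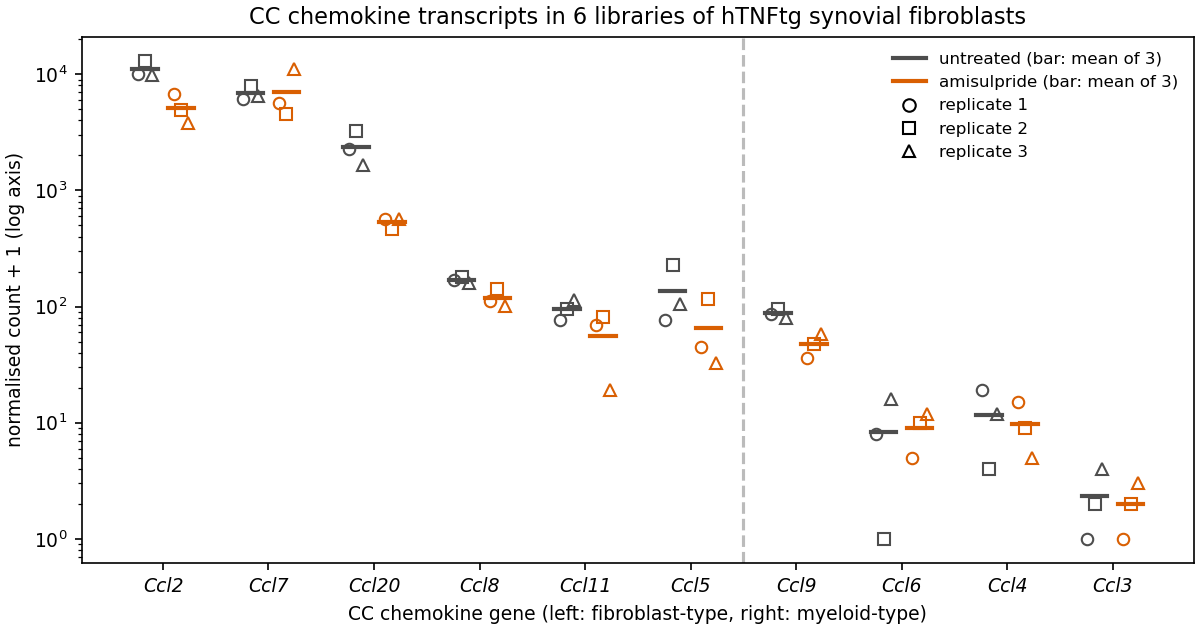
Normalised counts plus 1 (log axis) of the 10 CC chemokine genes in each library, with open symbols for replicates 1 to 3 and a bar for the mean of each group of 3. Ccl20 shows the widest gap between the groups, from at least 1656 untreated to at most 564 treated, whereas the treated replicate 3 lifts Ccl7 to 11019, above every untreated value.

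Of the 10 members, 8 reached the minimum of 10 normalised counts in at least 3 of the 6 libraries and were tested with limma, among 12614 genes in all. Ccl3 and Ccl6 did not reach it. Calls were made at an adjusted p under 0.05, or at the thresholds that the study used, which ask for a log2 fold change of 1 or more in size and for an unadjusted p under 0.05. At the study thresholds 3 of the 8 tested members, Ccl20, Ccl2 and Ccl5, were lower in treated SFs, against 3.01% of all genes tested, and 0 were higher, against 2.69%. With an adjusted p under 0.05, 1 member, Ccl20, was lower, against 0.19% of all genes. An unadjusted p under 0.05 was found for 4 members, the fourth being Ccl9, all of them lower, against 5.77% of all genes. All treated values lay below all untreated values for 4 members (Ccl2, Ccl8, Ccl9 and Ccl20), against 8.66% of all genes, and above them for 0, against 7.8%. Libraries of the same replicate number deviated together from their group means only weakly (r of 0.201 to 0.240 across genes). Within each of the 3 numbers the treated library was lower for 6 of the 8, against 17.8% of all genes. The exceptions were Ccl7 and Ccl4. The median log2 fold change was -0.95 over the 8 tested members and 0.00 over all genes tested. Of the 6 fibroblast-type members, all tested, 3 were lower at the study thresholds and the median was -1.06, or -0.59 without amisulpride replicate 3. Of the 4 myeloid-type members 2 were tested, 0 passed the study thresholds, and the median of the 2 was -0.53.

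**Figure D2:**
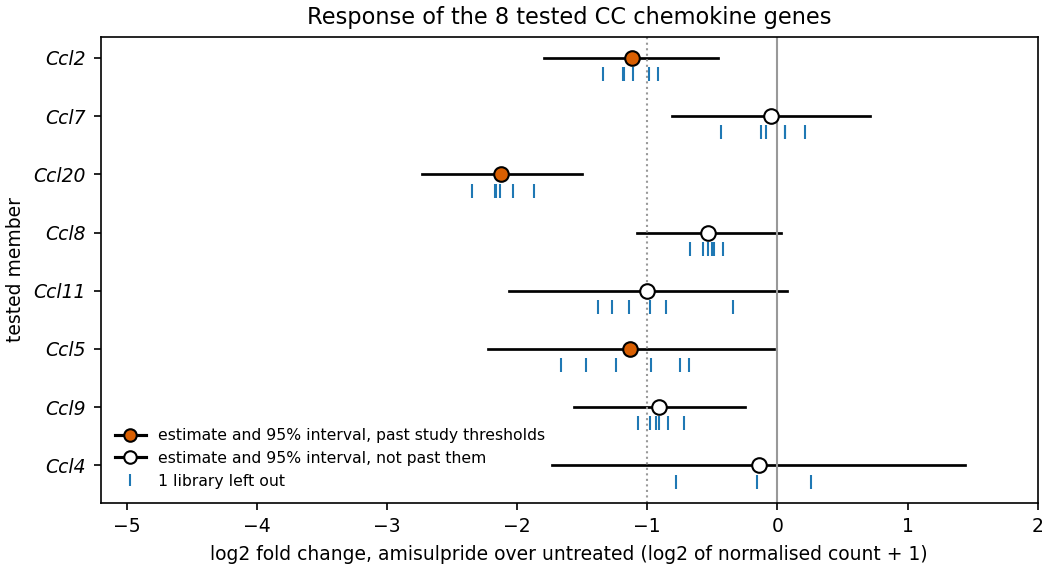
Log2 fold change (amisulpride over untreated) of the 8 tested members with its 95% interval in limma, filled where the study thresholds were passed, and ticks for the estimates with 1 library left out. The interval of Ccl20, -2.73 to -1.50, lies below that of Ccl7, -0.81 to 0.71, and the ticks of Ccl11 reach -0.34 and those of Ccl5 -0.68.

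Ccl20 (ENSMUSG00000026166, mm10 chromosome 1, 83116766 to 83119167, plus strand) encodes a ligand that attracts Th17 lymphocytes and immature dendritic cells through Ccr6, and is the only member outside chromosome 11. Its normalised counts were 2258, 3232 and 1656 in untreated replicates 1, 2 and 3 and 564, 464 and 562 in treated ones. Every treated library was thus far below the lowest untreated library, and the treated values were close to each other (530.0 ± 57.2, SD, n = 3) where the untreated ones were scattered (2382 ± 795). Ccl20 fell by 2.12 ± 0.28 (SE) on the log2 scale, or 4.34-fold, with a limma adjusted p of 0.013. It ranked 6 by p among the 12614 genes. The estimate ran from -2.35 to -1.87 over 14 alternative settings and passed the study thresholds in all 14, with adjusted p-values of 0.000818 to 0.115. The adjusted p lay above 0.05 in 4 of these, where untreated replicate 1 (0.115), 2 (0.083) or 3 (0.0694) or amisulpride replicate 2 (0.0649) was left out.

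The promoter region of Ccl20 is shown because this was the member with the lowest p, beside those of Ccl8 and Ccl9, which had smaller differences. RefSeq entries (GRCm38.p6, the assembly of mm10) were matched for 5 of the 10 members, namely Ccl20, Ccl8, Ccl9, Ccl6 and Ccl3. Ccl2, Ccl5, Ccl7, Ccl11 and Ccl4 had no matched entry, so the windows of Ccl2 and Ccl5 could not be compared. Each sequence is the 250 bases before the annotated start, 5′ to 3′ on the strand of the gene, at chr1:83116516-83116765 (plus strand) for Ccl20, chr11:82114935-82115184 (plus strand) for Ccl8 and chr11:83578637-83578886 (minus strand) for Ccl9. Capitals mark matches, on either strand, to the wide form of the NF-kB motif, GGGNNNNNCC, or to a wide form of the AP-1 motif, TGANTCA. N stands for any base, so a match need not be a consensus site.
Ccl20: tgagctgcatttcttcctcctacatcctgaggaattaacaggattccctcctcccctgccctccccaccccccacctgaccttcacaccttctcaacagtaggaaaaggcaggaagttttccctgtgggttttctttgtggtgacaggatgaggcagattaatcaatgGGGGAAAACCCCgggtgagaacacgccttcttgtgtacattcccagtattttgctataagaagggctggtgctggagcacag
Ccl8: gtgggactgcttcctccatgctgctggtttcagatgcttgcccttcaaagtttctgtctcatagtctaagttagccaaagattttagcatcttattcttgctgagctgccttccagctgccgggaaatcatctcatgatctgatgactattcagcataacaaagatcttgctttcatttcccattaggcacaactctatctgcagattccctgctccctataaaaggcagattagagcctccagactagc
Ccl9: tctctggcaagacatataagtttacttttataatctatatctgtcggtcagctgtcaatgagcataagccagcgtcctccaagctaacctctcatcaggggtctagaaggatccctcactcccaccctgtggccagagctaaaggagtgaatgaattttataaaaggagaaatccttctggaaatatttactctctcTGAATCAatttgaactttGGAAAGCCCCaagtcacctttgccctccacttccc
The Ccl20 window held 3 matches to the wide NF-kB motif, which overlap in 1 stretch from 82 to 71 bases before the start. The Ccl9 window held 1 such match and 1 to the wide AP-1 form, TGAATCA. No match to either was found in the window of Ccl8, nor in those of Ccl6 and Ccl3, which are not shown. A match to the wide NF-kB motif is common, being present in 45.8% of 32851 windows of the same length. The wide AP-1 form was found in 6.75%. These matches describe letters, and no binding was measured.

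Ccl2 and its closest relatives among the members lie in 1 cluster on chromosome 11, where Ccl2, Ccl7, Ccl11 and Ccl8 lie in this order on the plus strand (all coordinates are mm10). Ccl2 (ENSMUSG00000035385, 82035571 to 82037453) encodes monocyte chemoattractant protein 1, the main ligand of Ccr2. It had 10066, 13080 and 9879 normalised counts in untreated replicates and 6767, 4947 and 3767 in treated ones, so that the groups did not overlap. Mean normalised counts of Ccl2 were 11008 ± 1797 and 5160 ± 1511 (SD, n = 3). The log2 fold change of Ccl2 was -1.12 (95% interval -1.79 to -0.46). Its limma adjusted p was 0.173, or 0.0665 with the replicate number as a block. Ccl2 thus passed the study thresholds but not the adjusted one. It just missed the study thresholds, at -0.99 and -0.92, without untreated replicate 2 or amisulpride replicate 3. Gm17268, annotated on the opposite strand across Ccl2, was at 0 in all 6 libraries.

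Ccl7 (ENSMUSG00000035373, 82045712 to 82047525), the neighbour of Ccl2, encodes a related protein that also binds Ccr2. It had 6108, 7945 and 6436 normalised counts in untreated replicates and 5610, 4544 and 11019 in treated ones. Of the treated libraries, 2 lay below every untreated one and replicate 3 lay above them all, so the treated mean of 7058 ± 3472 (SD, n = 3) had a wide spread beside the untreated mean of 6830 ± 980. Ccl7 passed neither threshold, with a log2 fold change of -0.05 (95% interval -0.81 to 0.71, limma adjusted p = 0.971). The estimate was -0.43 without amisulpride replicate 3 (limma adjusted p = 0.576), and above 0 without untreated replicate 2 (0.06), amisulpride replicate 1 (0.06) or amisulpride replicate 2 (0.21).

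The balance between Ccl7 and Ccl2 within a library was steady in untreated SFs, and among treated SFs replicate 3 stood far from the others. Ccl7 equalled 60.7%, 60.7% and 65.2% of Ccl2 in untreated replicates, and 82.9%, 91.9% and 292% in treated ones. The log2 ratio was thus higher in every treated library, by 1.07 on average (untreated -0.69 ± 0.06, treated 0.39 ± 1.01, SD, n = 3), and by 0.49 without amisulpride replicate 3. The exact two-sided permutation test gave p = 0.1, the smallest value that 3 against 3 libraries allow, and 0.3 after adjustment over the 6 pairs compared. Most genes shared this shift against Ccl2, since the log2 ratio to Ccl2 was higher in every treated library for 65.1% of the 12613 other genes. The opposite was found for Ccl20, whose ratio to Ccl2 was 22.4%, 24.7% and 16.8% in untreated and 8.35%, 9.4% and 14.9% in treated libraries. The log2 ratio was lower in every treated library (untreated -2.25 ± 0.29, treated -3.25 ± 0.44, SD, n = 3, exact permutation p = 0.1, adjusted 0.3), as it was for 0.349% of the other genes. For Ccl5, Ccl8 and Ccl11 the ratios to Ccl2 overlapped between the groups (differences of -0.01, 0.59 and 0.13 on the log2 scale, exact p of 1.0, 0.2 and 1.0). The last pair, Ccl9 and Ccl6, also overlapped, and Ccl6 was at 0 in untreated replicate 2.

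**Figure D3:**
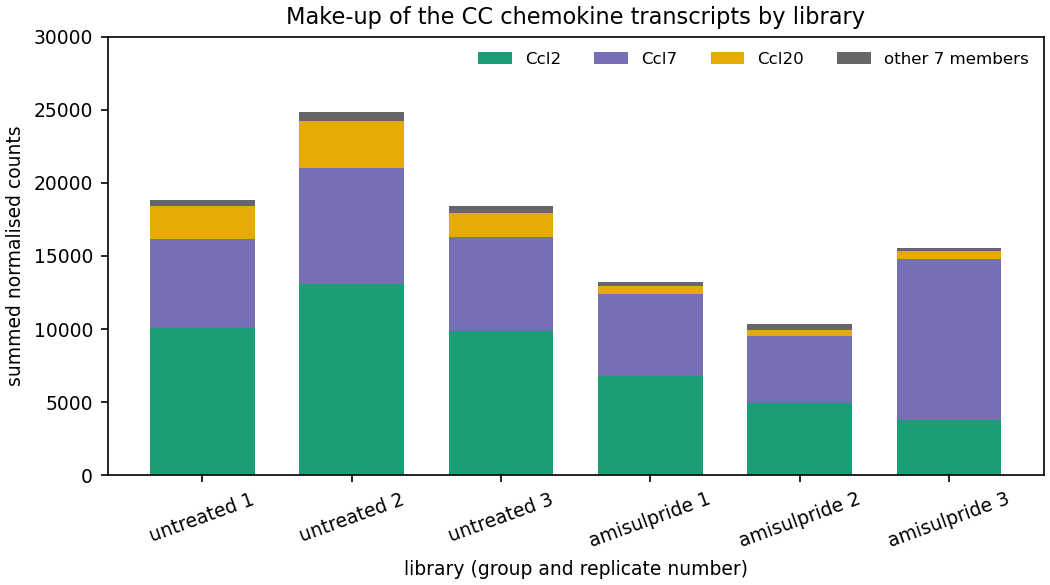
Stacked bars of the summed normalised counts of the CC chemokine genes in each library, split into Ccl2, Ccl7, Ccl20 and the other 7 members. Ccl2 held 52.6% to 53.5% of the sum in untreated libraries and 51.2%, 47.8% and 24.2% in treated ones, Ccl20 went from between 8.97% and 13.0% to between 3.61% and 4.48%, and Ccl7 made up 70.8% in amisulpride replicate 3.

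Ccl8 (ENSMUSG00000009185, 82115185 to 82116799), a further relative of Ccl2, had 168, 178 and 158 normalised counts in untreated replicates and 111, 141 and 100 in treated ones. The groups did not overlap, but the difference was small, with a log2 fold change of -0.53 (95% interval -1.08 to 0.03, limma adjusted p = 0.489). It kept its sign in all 14 alternatives, between -0.67 and -0.42. Ccl11 (ENSMUSG00000020676, 82057823 to 82062955) encodes eotaxin, which attracts eosinophils through Ccr3. Its normalised counts were 76, 95 and 113 in untreated and 68, 80 and 18 in treated replicates. The groups overlapped and replicate 3 was far below the other treated libraries. The log2 fold change of Ccl11 was -0.996 with a 95% interval of -2.06 to 0.07 (limma adjusted p = 0.495). With the replicate number as a block its limma adjusted p was 0.255. The estimate was -0.34 without amisulpride replicate 3.

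Ccl5 (ENSMUSG00000035042, chromosome 11, 83525778 to 83530518, minus strand) encodes RANTES, a Ccr1 ligand that attracts T cells and monocytes. It had 75, 226 and 104 normalised counts in untreated replicates and 44, 116 and 32 in treated ones. The untreated replicate 2 and the treated replicate 2 were each the highest of their group, so the groups overlapped although the treated library was lower within each replicate number, with log2 differences of -0.76, -0.96 and -1.67. The log2 fold change was -1.13 (95% interval -2.22 to -0.03), with a limma adjusted p of 0.445. With the replicate number as a block the adjusted p was 0.0613. In 5 of 14 alternatives Ccl5 fell short of the study thresholds, and leaving out untreated replicate 2 moved the estimate to -0.68 (limma adjusted p = 0.748). Leaving out amisulpride replicate 3 moved it to -0.75 (limma adjusted p = 0.576). Lymphocyte RNA was scarce, with 6 of 10 T and NK cell markers, Cd3e among them, at 0 in all 6 libraries and sums of 13 to 37 normalised counts per library, of which Cd3d made up 11 to 33. The part of lymphocytes in the values of Ccl5 was not tested.

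The myeloid-type members lie in a second cluster on chromosome 11 beside Ccl5. Ccl9 (ENSMUSG00000019122, 83572919 to 83578636, minus strand), a Ccr1 ligand of mice that macrophages and osteoclasts make, was the most abundant of them. It had 86, 95 and 78 normalised counts in untreated replicates and 35, 47 and 57 in treated ones, with no overlap (86.3 ± 8.5 against 46.3 ± 11.0, SD, n = 3). The log2 fold change of Ccl9 was -0.91 (95% interval -1.56 to -0.25), with a limma adjusted p of 0.261. It stayed short of the study thresholds, except without amisulpride replicate 3, where it was -1.07.

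The other myeloid-type members were scarce. Ccl4 (ENSMUSG00000018930, 83662584 to 83664683, plus strand), which encodes macrophage inflammatory protein 1 beta, had 18, 3 and 11 normalised counts in untreated and 14, 8 and 4 in treated replicates. The groups overlapped widely and the log2 fold change of -0.14 had a 95% interval of -1.73 to 1.44 (limma adjusted p = 0.959). Ccl6 (ENSMUSG00000018927, 83587882 to 83593087, minus strand), another Ccr1 ligand, had 7, 0 and 15 in untreated and 4, 9 and 11 in treated replicates. E230016K23Rik overlaps Ccl6 on the opposite strand with 7 to 15 normalised counts, and reads of the 2 genes cannot be told apart where strand was not used in counting. Ccl3 (ENSMUSG00000000982, 83647844 to 83649355, minus strand), which encodes macrophage inflammatory protein 1 alpha, had 0, 1 and 3 in untreated and 0, 1 and 2 in treated replicates. The values of Ccl3 are near the floor and those of Ccl6 overlapped, and no difference in either was detectable at this depth.

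Markers of macrophages and other myeloid cells were present despite the depletion of CD45+ cells. All 20 marker genes of the list passed the filter, 0 stood at 0 in all libraries, and their sum ran from 3201 to 6275 normalised counts in untreated and from 3053 to 5759 in treated SFs. Lyz2 alone supplied 1394 to 3287 of it. The sum of the 4 myeloid-type chemokines was 111, 99 and 107 in untreated and 53, 65 and 74 in treated replicates, without overlap, and Ccl9 made up most of it. The marker sum was highest in replicate 1 of both groups, and the chemokine sum was highest there in untreated and lowest there in treated SFs. Estimates were lower for 11 and higher for 9 of the 20 markers, with a median log2 fold change of -0.08. Of the 20, 3 passed the study thresholds, all lower (3.01% of all genes did so), and 0 had an adjusted p under 0.05 in limma. An unadjusted p under 0.05 in limma was found for 3 lower markers and 1 higher one, against 5.77% of all genes as lower and 10.9% in either direction. Cd14, a co-receptor for lipopolysaccharide, had 121, 69 and 76 in untreated and 47, 25 and 13 in treated replicates (log2 fold change -1.74, limma adjusted p = 0.144). Spi1, a transcription factor of the myeloid lineage, had 180, 99 and 116 against 91, 13 and 57 (log2 fold change -1.61, limma adjusted p = 0.306). Csf1r, the receptor for macrophage colony-stimulating factor, had 114, 93 and 76 against 41, 23 and 100 (log2 fold change -1.01, limma adjusted p = 0.456), and its groups overlapped. The higher one, C1qc, a complement component (95, 34 and 44 against 127, 67 and 125), and its partner C1qb (44, 35 and 38 against 53, 50 and 109) had log2 fold changes of 0.95 and 0.75 (limma adjusted p = 0.426 and 0.479) and were picked after their values were seen. So were the lower Ptprc, the gene for CD45 (38, 12 and 18 against 23, 5 and 5), and Cx3cr1 (69, 45 and 47 against 62, 12 and 18). Their log2 fold changes were -1.16 and -1.10 (limma adjusted p = 0.562 and 0.482), and the groups overlapped for both. Adgre1, a macrophage marker of the same list, went the other way, also with overlap. It had 39, 25 and 14 against 59, 43 and 32 (log2 fold change 0.83, limma adjusted p = 0.518). The part of the myeloid cells in the values of Ccl9, Ccl2, Ccl5, Ccl7 and Ccl8 was not tested.

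**Figure D4:**
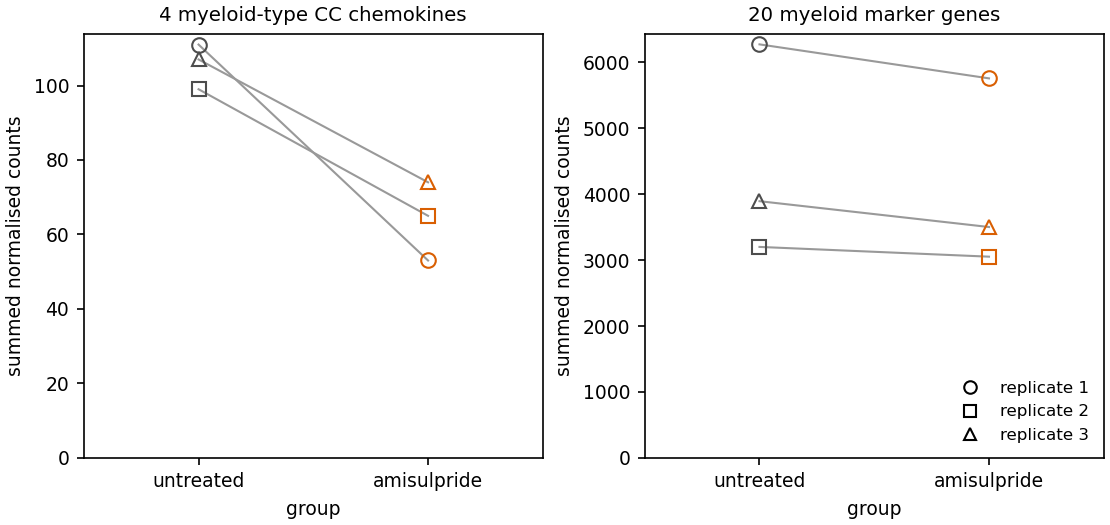
Summed normalised counts of the 4 myeloid-type CC chemokine genes (left) and of the 20 myeloid marker genes (right) in each library, both axes from 0, with lines that join libraries of the same replicate number. The chemokine sum separates the groups (99 to 111 against 53 to 74), and the marker sum overlaps (3201 to 6275 against 3053 to 5759) although the treated library is the lower of each joined pair.

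Of 14 further CC chemokine genes, 13 were listed and 6 of these stood at 0 in all libraries. Ccl27a, known from the skin as a lymphocyte attractant, was the one gene tested, with 19, 30 and 13 normalised counts in untreated and 45, 20 and 52 in treated SFs (log2 fold change 0.85, limma adjusted p = 0.542). Ccl25, a thymic and intestinal chemokine, had 7, 9 and 9 against 24, 37 and 9 and did not pass the filter. Ccl12, the remaining relative of Ccl2 in its cluster, had 4 to 8 normalised counts in all 6 libraries.

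Receptors for these ligands were scarce in the cultures. Of 10 CC chemokine receptor genes, 5 were at 0 in all libraries, among them Ccr2 and Ccr6, the receptors of Ccl2 and Ccl20. Ccr1, a receptor of Ccl5 and Ccl9, had 24, 21 and 12 normalised counts in untreated and 10, 1 and 7 in treated replicates. Its log2 fold change of -1.78 ± 0.70 (SE) passed the study thresholds (limma adjusted p = 0.367), and the treated replicate 2 was under the floor of 4.01 normalised counts. None of the 5 genes for atypical receptors and chemokine handling (Ackr1, Ackr2, Ackr4, Ccrl2 and Dpp4) was abundant enough to test.

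Subunits, inhibitors, feedback genes and other targets of the TNF and NF-kB pathway were examined as a list of 26 genes. Of these 25 were tested, 18 with a lower and 7 with a higher estimate, against 6289 and 6325 of all 12614 genes. The median log2 fold change was -0.16. Of the 25, 0 passed the study thresholds, which 3.01% of all genes passed as lower and 2.69% as higher. An adjusted p under 0.05 in limma was found for 0, against 24 lower and 12 higher of all genes. With so few genes passing in general, these counts of 0 are near the background. An unadjusted p under 0.05 was found for 2, against 10.9% of all genes in either direction. These 2, named after their values were seen, were Nfkbie, an inhibitor of NF-kB (157, 91 and 102 untreated, 76, 66 and 45 treated, log2 fold change -0.89, limma adjusted p = 0.312), and Bcl3, an atypical member of the same inhibitor family (126, 175 and 115 against 100, 87 and 50, log2 fold change -0.84, limma adjusted p = 0.355). Both were lower without overlap between the groups, as were 8.66% of all genes. The lowest estimates of the list were those of Il6 (36, 32 and 9 against 16, 13 and 4, log2 fold change -1.12, limma adjusted p = 0.573) and Traf1 (-0.98, limma adjusted p = 0.487). The highest was that of Tnfrsf1b (119, 155 and 137 against 134, 159 and 446, log2 fold change 0.63, limma adjusted p = 0.609). In all of these the groups overlapped. The following 4 genes were likewise picked with their values known. Nfkbia, the classical inhibitor, had 2162, 2025 and 1566 against 2096, 1401 and 655 (log2 fold change -0.61, limma adjusted p = 0.599). Tnfaip3, which encodes the feedback protein A20, had 36, 83 and 58 against 44, 48 and 52 (log2 fold change -0.22, limma adjusted p = 0.852), and both overlapped. The 2 NF-kB-dependent adhesion molecules Icam1 (267, 472 and 178 against 416, 695 and 200) and Vcam1 (2635, 2746 and 1785 against 3896, 3475 and 1387) had log2 fold changes of 0.45 and 0.18 (limma adjusted p = 0.756 and 0.892).

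How the members varied together was described over the 6 libraries, which share the split by treatment, so the correlations carry it. Pearson's r of log2 values was 0.91 between Ccl2 and Ccl20 and 0.85 between Ccl2 and Ccl8, but -0.15 between the neighbours Ccl2 and Ccl7. Ccl7 had an r of -0.69 to 0.34 with each of the 7 other tested members. These values of Ccl7 lean on amisulpride replicate 3, where Ccl7 was highest, at 11019, and Ccl2 lowest, at 3767. Among the other libraries both genes were highest in untreated replicate 2 (13080 for Ccl2, 7945 for Ccl7) and lowest in amisulpride replicate 2 (4947 and 4544). No r was computed without amisulpride replicate 3, so whether the neighbours vary together apart from it was not tested. Likeness to Ccl2 and to Ccl20 was ranked among 4991 other protein-coding genes with a mean of at least 100. Those most like Ccl2 were Bmp1, Ddah1, Ripk2, Fzr1 and Aggf1 (r of 0.978 to 0.989). Those most like Ccl20 were Trp53inp2, Gatad2a, Itpripl2, Mcpt8 and Mvk (r of 0.972 to 0.998). All were picked as the highest of 4991 values over only 6 libraries, so their r does not show shared regulation with either chemokine.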

How the data were processed

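Poly(A) 3′ libraries (QuantSeq, Ion Proton) of 3 untreated and 3 amisulpride-treated cultures of hTNFtg SFs were used. Reads were mapped by the authors to mm10 with TopHat2 and, where unmapped, with Bowtie2, counted per gene with GenomicRanges and normalised. DESeq is named for the authors' differential test. The normalisation method, tool versions and the use of strand in counting were not given in the sources used here. The values used are classed as a score: the authors deposited normalised read counts per gene as whole numbers, and in 5 libraries these were spaced as reads times 1 factor per library. A further 12 columns holding library values on other scales, and the columns of the authors' own comparison (p-values and fold changes), were not used.

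The value of 1 read was estimated from the spacing of low values. In untreated replicate 1 it could not be determined, so its depth and floor are not given. Floors cover counting error only. Because values are rounded after scaling, no count model was run. Genes with at least 10 in at least 3 libraries were tested with limma 3.58.1 (R 4.3.3) on log2(normalised count + 1), with a mean-variance trend (prior degrees of freedom 7.31), two-sided, with Benjamini-Hochberg adjustment over 12614 genes. This scale understates the change of low genes. The fit was tested on simulated data. The members, lists and tests were chosen with earlier results of these data known. All members were named, and of other lists the genes past the study thresholds (the 6 with the lowest p where more passed) and chemokines and receptors with at least 10 in any library. Likeness named the 5 genes with the highest r. Some genes that these rules name are not reported here. Ratios of members were compared by exact permutation over libraries. Same-numbered libraries deviated together from their group means (r of 0.229, 0.240 and 0.201 across genes), so the numbers may pair the samples. The labels do not say what same-numbered libraries share. The main fit and the permutation tests did not use the numbers. Member transcript ends (400 bases) shared at most 1.62% of their words of 31 bases with other genes.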

Additional observations from a re-analysis of the deposited data

How the results depend on the processing

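Over 14 alternatives (pseudocounts, filter, scaling, weights, replicate block, each library left out), single members had the same sign and the same side of the study thresholds as reported in 93 cases, fell short of those thresholds in 7 (Ccl5 and Ccl2), passed them anew in 3 and had the opposite sign in 6. The adjusted p of Ccl20 rose above 0.05 in 4 of the cases counted as the same. The sign changes were those of Ccl7 (-0.43 to 0.21 with 1 library left out, above 0 at 0.06, 0.06 and 0.21) and of Ccl4 (0.14 on quantile-normalised values, 0.25 with library weights and, with 1 library left out, -0.78 to 0.26), neither of which passed a threshold. Ccl4 was not tested in 3 alternatives because too few libraries then reached the minimum of 10.

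The number of members past the study thresholds, 3, ranged from 1 to 4 with 1 library left out, with the lowest when untreated replicate 2 and the highest when amisulpride replicate 2 was dropped. The number with an adjusted p under 0.05, 1, was 0 to 1 with 1 library left out, and 0 without any single untreated library or without amisulpride replicate 2 (limma, 3 to 6 members then had an unadjusted p under 0.05). The replicate block left these numbers at 3 and 1 and changed no call of a member, although Ccl11, at -0.996, then missed the study thresholds by its size alone. The median of the 6 fibroblast-type members, -1.06, ranged from -1.25 to -0.59 with 1 library left out, and was -0.59 without amisulpride replicate 3. That of the 2 tested myeloid-type members, -0.53, was -0.14 with all 4 in the fit without a filter. Over all genes, the count with an adjusted p under 0.05, 36, came to 57 both at a pseudocount of 5 and without a filter, 66 on quantile-normalised values, 195 with library weights, 263 with the replicate block and 0 to 120 with 1 library left out (911 to 1630 with an unadjusted p under 0.05). Past the study thresholds there were 719 genes, and 1313 without a filter. Depth limits the report on Ccl3, at most 3 normalised counts per library, and on Ccl4 and Ccl6, at most 18 and 15.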
